A study of Rattus norvegicus with 12 samples.

Results

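Transcripts of 8 genes that take up or carry folate, thiamine, biotin, ascorbate and cobalamin were examined in the jejunal mucosa of rats from a low Fe and a high Fe group. Members were the probe sets (the array's groups of short probes for 1 transcript) whose only platform gene symbol is Slc46a1, Slc19a1, Slc19a3, Slc5a6, Slc23a1, Cubn, Amn or Tcn2. Of these genes 7 had such a probe set, 8 probe sets in all, since Amn had a pair. All 8 lie on array type 230A, among 10412 genes with a probe set of 1 symbol there, and 0 lie on array type 230B, which has 5668 such genes. Slc19a3, thiamine transporter THTR-2, was not analysed here.

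The tissue was a scraping of the jejunal lining, the middle part of the small intestine. The groups were low Fe with 3 samples and high Fe with 3 samples, all labelled week 12, and each sample was run on an Affymetrix 230A and a 230B array. The labels add iron deficiency and anemia as keywords. They do not give the strain, sex, diet composition or iron status of the rats, whether week 12 is an age or a time on diet, or whether the samples came from separate or pooled animals, so the p-values reflect sample-to-sample spread that could be partly or wholly technical.

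Water-soluble vitamins cross the intestinal brush border on dedicated carriers. Slc46a1 is the proton-coupled folate transporter, which works best in the acid layer at the surface of the upper small intestine. It was first described as a heme carrier. Slc19a1 is the reduced folate carrier and Slc5a6 the sodium-dependent carrier of biotin, pantothenate and lipoate. Slc23a1 is a sodium-dependent ascorbate transporter, found here in a species that also makes its own ascorbate. Cobalamin follows another route: Cubn (cubilin) and Amn (amnionless) form the receptor that takes up cobalamin bound to intrinsic factor, mainly in the ileum, and Tcn2 (transcobalamin) carries it onward in blood.

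The rat promoter table of RefSeq (build GRCr8) held 7 of the 8 members, all but Tcn2. The 250 bases before the annotated start are shown for Slc46a1, the folate carrier first described as a heme carrier, and for Cubn and Amn. Cubn and Amn are the parts of the cobalamin receptor. These genes were chosen because their probe sets were low in low Fe replicates 2 and 3, as given below. Cubn was also low in high Fe replicate 3. Capitals mark the core of the hypoxia response element, written ACGTG or GCGTG and searched on both strands, the motif bound by the hypoxia-inducible factors that are known to switch on intestinal iron uptake genes.
Slc46a1, chr10:63859301-63859550, plus strand: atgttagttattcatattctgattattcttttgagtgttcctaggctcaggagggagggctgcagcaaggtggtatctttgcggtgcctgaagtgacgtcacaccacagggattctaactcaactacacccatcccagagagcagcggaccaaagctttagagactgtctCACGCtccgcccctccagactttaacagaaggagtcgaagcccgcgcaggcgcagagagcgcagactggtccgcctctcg
Cubn, chr17:81501695-81501944, minus strand: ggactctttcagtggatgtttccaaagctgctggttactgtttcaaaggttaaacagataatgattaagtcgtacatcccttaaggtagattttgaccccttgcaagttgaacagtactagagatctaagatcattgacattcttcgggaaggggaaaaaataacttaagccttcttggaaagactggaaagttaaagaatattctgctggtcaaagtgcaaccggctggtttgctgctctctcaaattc
Amn, chr6:136132317-136132566, plus strand: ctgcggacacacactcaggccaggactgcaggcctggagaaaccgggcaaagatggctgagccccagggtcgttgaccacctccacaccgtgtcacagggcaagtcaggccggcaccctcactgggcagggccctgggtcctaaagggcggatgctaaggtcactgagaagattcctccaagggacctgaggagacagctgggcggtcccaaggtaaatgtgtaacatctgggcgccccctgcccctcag

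The Slc46a1 promoter held 1 match, whose first base lies 80 bases before the start. Neither the Cubn nor the Amn sequence shown held one, and Amn had a CACGTG just after its start, which contains the core on both strands. Over 300 bases, the 250 shown and the 50 after the start, 5 of the 7 members held a core, against 41.6% of 33469 rat promoters of that length. A CACGTG, also called an E-box, was in 2 of the 7, Slc5a6 and Amn, against 6.42% of all. These matches describe letters only, and nothing in the data measured binding there.

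Signals are the linear intensities deposited for each probe set, scaled so that every array of a type has the same trimmed mean. The median array signal was 154 to 176 on 230A and 259.5 to 302.6 on 230B. Precision is set by the small number of arrays, 6 of each type. A probe set's signal cannot be set against that of another probe set. Differences are low Fe minus high Fe on the log2(signal + 16) scale from limma, which was fitted over all 9519 tested 230A probe sets, and the adjusted p-values are Benjamini-Hochberg values over that whole set. All 8 member probe sets passed the filter on dim ones, with mean signals between the 83.7th and the 97.9th percentile of the type.

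None of the vitamin transporters differed between the groups beyond the threshold. Of the 8 probe sets 0 passed an adjusted p of 0.05 in limma, where 0.0945% of all tested 230A probe sets did, and 0 had an unadjusted p under 0.05, where 6.68% of all did. The groups overlapped for all 8, while they stood apart for 11.8% of all tested probe sets. The median log2 difference over the 8 was -0.10, beside -0.015 over all tested. Below 0 lay 7 of the 8, a count that was 4 with arrays set to a common median and 2 with arrays scaled to the hybridization controls, a scaling that moved the median of all probe sets to 0.342. Against the median of all, 6 of the 8 lay lower under each of these 3 scalings. Leaving out single arrays gave 4 to 7 below 0, with 4 without low Fe replicate 2. In a mucosal scraping, fewer cells of a type and less RNA per cell cannot be told apart.

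**Figure D1:**
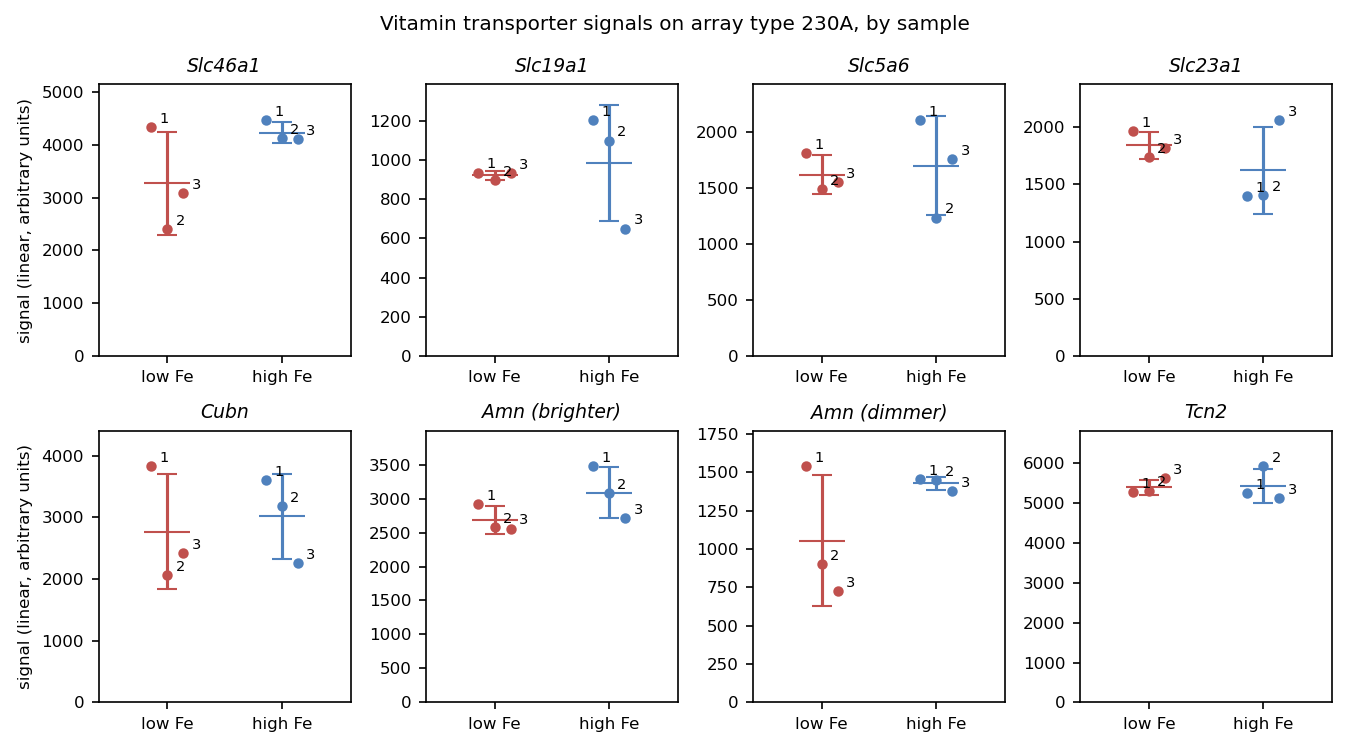
Linear signal of each member probe set on array type 230A in the 3 low Fe samples (red, left) and the 3 high Fe samples (blue, right), numbered by replicate, with the mean and SD of each group. For Slc46a1, low Fe replicates 2 and 3 (2410.3 and 3085.6) lie under all high Fe samples while low Fe replicate 1 (4336) lies among them.

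Among the folate carriers, Slc46a1 had the larger difference. Its signal was 4336, 2410.3 and 3085.6 in low Fe replicates 1 to 3, against 4476.6, 4125.5 and 4110 in high Fe replicates 1 to 3. Low Fe replicates 2 and 3 were thus below every high Fe sample, low Fe replicate 1 was within the high Fe range, and the groups overlapped through that sample. The mean was 3277 ± 977 in low Fe and 4237 ± 207 in high Fe (SD, n = 3 each), so the low Fe samples varied by 29.8% of their mean and the high Fe samples by 4.89%.

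The log2 difference of Slc46a1 was -0.41 ± 0.20 (SE; limma adjusted p = 0.753, unadjusted 0.0663). Its 95% interval, from -0.85 to 0.03, corresponds to a change in signal of -44.7% to 2.39%. Leaving out low Fe replicate 1 gave -0.63 (limma adjusted p = 0.167), and leaving out low Fe replicate 2 gave -0.21. Hmox1, the heme oxygenase that breaks heme down inside the cell, was higher on the same arrays, at 1449 ± 67.7 in low Fe and 581.8 ± 115 in high Fe (log2 difference 1.31 ± 0.16, limma adjusted p = 0.0251). Leaving out single arrays ended the call of Hmox1, with limma adjusted p-values of 0.188 (low Fe replicate 2), 0.136 (low Fe replicate 3), 0.0606 (high Fe replicate 2) and 0.118 (high Fe replicate 3).

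Slc19a1, the reduced folate carrier, had signals of 936.7, 897.2 and 932.3 in low Fe and 1205.5, 1099.6 and 650.4 in high Fe. The low Fe samples lay close together, between the highest and the lowest high Fe samples. The spread was the reverse of that of Slc46a1, at 2.35% of the mean in low Fe and 29.9% in high Fe. The log2 difference was -0.05 ± 0.22 (limma adjusted p = 0.978), with an interval from -0.54 to 0.44. It was -0.32 without high Fe replicate 3, whose signal was the lowest, and 0.12 without high Fe replicate 1, whose signal was the highest.

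Slc5a6, the biotin and pantothenate carrier, had signals of 1813, 1486.8 and 1552.3 in low Fe and 2107.3, 1235.8 and 1757.4 in high Fe. Its highest and lowest values were both high Fe samples, and the low Fe samples fell between them. The means were 1617 ± 173 in low Fe and 1700 ± 439 in high Fe, and the log2 difference was -0.04 ± 0.19 (limma adjusted p = 0.978, interval -0.48 to 0.40). It was -0.25 without high Fe replicate 2 and 0.13 without high Fe replicate 1.

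Slc23a1, the ascorbate transporter, was the member with a log2 difference above 0. Its signals were 1968.6, 1738.6 and 1821.2 in low Fe and 1400, 1406.9 and 2065 in high Fe. All low Fe samples lay above high Fe replicates 1 and 2, and high Fe replicate 3 lay above all of them. The means were 1843 ± 117 in low Fe and 1624 ± 382 in high Fe, and the log2 difference was 0.20 ± 0.17 (limma adjusted p = 0.842, interval -0.18 to 0.58). It was 0.39 without high Fe replicate 3 and 0.11 without high Fe replicate 1, and it was above 0 under every alternative run.

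**Figure D2:**
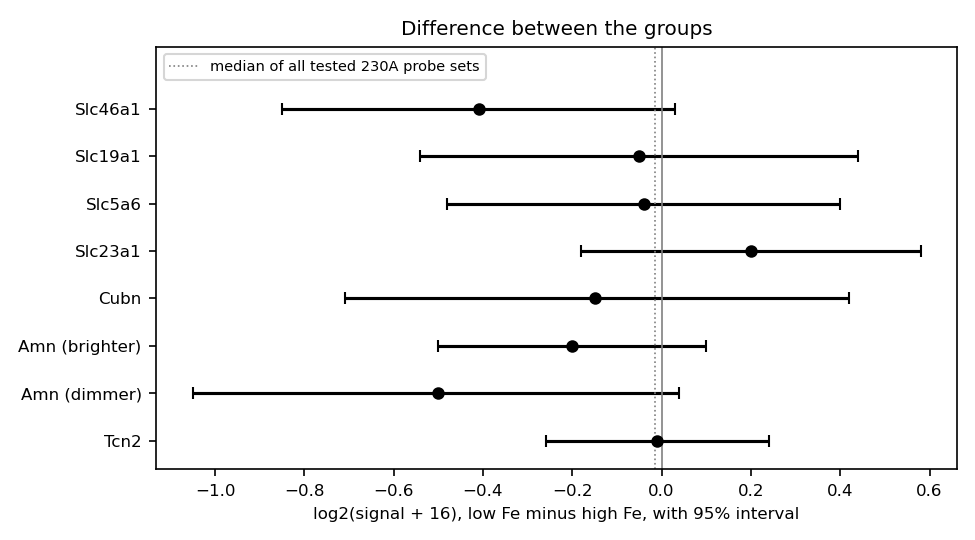
Log2 difference, low Fe minus high Fe, of each member probe set (points) with its 95% interval from limma (bars), on the log2(signal + 16) scale; the dotted line is the median of all tested 230A probe sets, -0.015. Every interval includes 0, with upper ends of 0.03 for Slc46a1 and 0.04 for the dimmer Amn probe set.

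For the cobalamin receptor, Cubn had signals of 3825.2, 2057.1 and 2419.9 in low Fe and 3605.3, 3182.9 and 2252.9 in high Fe. Low Fe replicate 1 was the highest of the 6 samples and low Fe replicate 2 the lowest, so the groups overlapped fully. The means were 2767 ± 934 in low Fe and 3014 ± 692 in high Fe. The log2 difference was -0.15 ± 0.25 (limma adjusted p = 0.916, interval -0.71 to 0.42), and it was -0.40 when low Fe replicate 1 was left out and 0.04 when low Fe replicate 2 was.

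Amn, the partner that anchors cubilin in the membrane, was measured by 2 probe sets whose differences lay on the same side of 0. The brighter one gave 2916, 2574.1 and 2558.4 in low Fe and 3473, 3080.6 and 2710.1 in high Fe. The dimmer one gave 1538.4, 900.1 and 726.5 in low Fe and 1456.8, 1448.1 and 1378.5 in high Fe. In both, low Fe replicates 2 and 3 lay below every high Fe sample. Low Fe replicate 1 lay within the high Fe range for the brighter probe set and above it for the dimmer one.

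The log2 difference of Amn was -0.20 ± 0.13 for the brighter probe set (limma adjusted p = 0.801) and -0.50 ± 0.24 for the dimmer one (limma adjusted p = 0.755). Their mean gave -0.35 ± 0.17 (limma adjusted p = 0.757). The intervals ran from -0.50 to 0.10 and from -1.05 to 0.04. For the brighter probe set the value was -0.11 without high Fe replicate 1. Without low Fe replicate 1 the dimmer one gave -0.81, with the smallest adjusted p of any member probe set under any alternative, 0.101, and without low Fe replicate 3 it gave -0.27.

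Tcn2, the carrier of cobalamin in plasma, had the steadiest signal of the members. It was 5265, 5310.1 and 5615.3 in low Fe and 5248, 5917.9 and 5126.2 in high Fe, with means of 5397 ± 191 and 5431 ± 426. The samples of both groups were interleaved. The log2 difference was -0.01 ± 0.11 (limma adjusted p = 0.993), and its interval from -0.26 to 0.24 corresponds to a change in signal of -16.4% to 18.5%. It took either sign as single arrays were left out, from -0.05 without high Fe replicate 3 to 0.06 without high Fe replicate 2.

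Across samples the members fell into different patterns. Slc46a1, Cubn and the dimmer Amn probe set were all above their own 6-array mean in low Fe replicate 1, by 0.24, 0.44 and 0.36 on the log2 scale, and below it in the other low Fe samples. They were at -0.60, -0.45 and -0.40 in low Fe replicate 2 and at -0.25, -0.21 and -0.71 in low Fe replicate 3. The brighter Amn probe set was at 0.02, -0.16 and -0.16 in the same samples. In high Fe, Slc46a1 and the dimmer Amn probe set stayed above their means in all 3 samples, while Cubn was at -0.32 in high Fe replicate 3. Slc19a1, Slc5a6, Slc23a1, Tcn2 and the brighter Amn probe set varied more within high Fe than within low Fe.

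**Figure D3:**
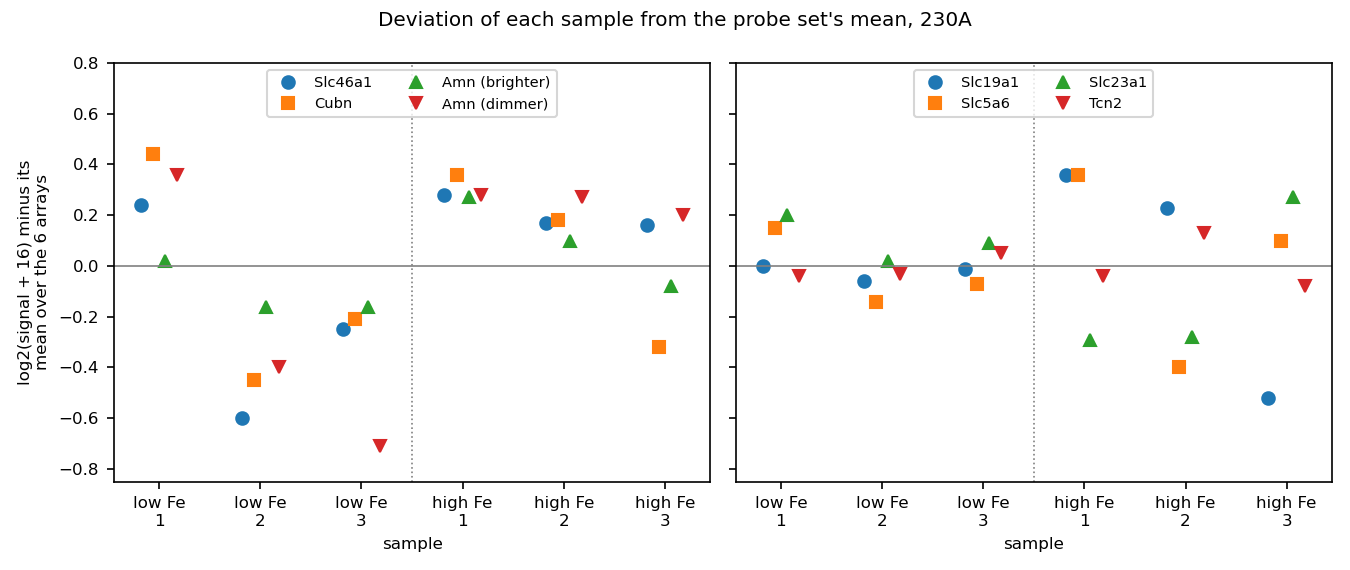
Log2(signal + 16) of each member probe set minus its mean over the 6 arrays of type 230A, by sample, with low Fe samples left of the dotted line and high Fe samples right of it. Slc46a1, Cubn and the dimmer Amn probe set lie above 0 in low Fe replicate 1 and between -0.21 and -0.71 in low Fe replicates 2 and 3, and the other probe sets lie between -0.16 and 0.20 in all low Fe samples.

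The arrays also differed in signs of RNA quality. On 230A the 5'/3' signal ratio of the GAPDH control probe sets, which falls when target RNA is shorter, was 0.807 and 0.794 in low Fe replicates 2 and 3 and 0.811 in high Fe replicate 1, and it was 0.876 in low Fe replicate 1 and 0.922 and 0.887 in high Fe replicates 2 and 3. The same 3 samples had the lowest ratios on the second array, but low Fe replicates 1 and 3 lay close together there. On 230B the ratio was 0.877, 0.821 and 0.873 in low Fe replicates 1 to 3, against 0.831, 0.919 and 0.939 in high Fe. Of these 3 samples, low Fe replicates 2 and 3 had the lowest Slc46a1 signals of the 6, and high Fe replicate 1 had the highest. With the 230A sets of lower and higher ratio as a block, the smallest limma adjusted p of a member probe set was 0.863. In the lower set (2 low Fe, 1 high Fe), Slc46a1, Cubn and the dimmer Amn probe set gave log2 differences of -0.71, -0.69 and -0.84. In the higher set (1 low Fe, 2 high Fe) they gave 0.07, 0.51 and 0.12. The 1 low Fe sample there is low Fe replicate 1, in which these probe sets were above their own means. The split by ratio and that sample cannot be told apart. The other member probe sets ran from -0.47 to 0.34 in the lower set and from -0.06 to 0.30 in the higher. The beta-actin ratio was 0.0539 in low Fe replicate 3, against 0.591 to 0.836 in the other 230A arrays. On 230B it was 0.0473 in that sample, against 0.499 to 0.896 in the others. The part of RNA quality in these differences was not tested.

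Enterocyte markers were bright in every sample and lay slightly to the same side as the transporters. Of 12 enterocyte markers, 9 were measured on 230A and all 9 passed the filter. The log2 difference was below 0 for 8 of the 9, with a median of -0.16, and Vil1, villin, on 230B was also at -0.16. None passed the threshold, and the members had 7 of 8 below 0 with a median of -0.10. The summed signal of the 9 markers ran from 94710 to 122800 in low Fe and from 91230 to 152600 in high Fe. The lowest sum was in high Fe replicate 1 and the highest in high Fe replicate 2. The smallest p were those of Alpi, Cdh17 and Si, at -0.23 ± 0.18, -0.23 ± 0.18 and -0.19 ± 0.16. Their limma adjusted p-values were 0.823, 0.826 and 0.848. Without high Fe replicate 2, Alpi and Cdh17 were at -0.0521 and -0.0524. With arrays scaled to the hybridization controls, all 3 were above 0. Of the ileal markers, Slc10a2 and Fabp6, the bile acid carriers of the ileum, averaged 93.5 and 106.8 in low Fe and 108.6 and 68.33 in high Fe, near or below the filter boundary of 106, and were not tested. The bile acid receptor Nr1h4 gave -0.12 ± 0.19 and the transporter subunit Slc51a, bright on 230B at 26400 ± 3100 in low Fe and 24250 ± 4310 in high Fe, 0.13 ± 0.17.

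Smooth muscle markers differed between the array types. All 9 were measured on 230A and 6 passed the filter, with Actg2, Tagln and Cnn1 below it. The log2 difference was above 0 for all 6, with a median of 0.50, and none passed the threshold. Des averaged 150.5 in low Fe and 96.6 in high Fe, and Smtn 185.8 and 79.43. Their high Fe means lay under the filter boundary of 106, so they passed the filter through low Fe. The count and the median rest partly on them. The summed 230A signal of all 9 was 4686, 6114 and 5698 in low Fe replicates 1 to 3. It was 3972, 3682 and 4388 in high Fe, so the groups did not overlap. Most of that sum was Mylk, myosin light chain kinase, at 3711 ± 312 in low Fe and 2754 ± 275 in high Fe. On 230B, with 5 of the 9 measured, the sum was 1901, 1689 and 1531 in low Fe and 1545, 1488 and 2002 in high Fe, and the groups overlapped.

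Among single muscle markers, Mylk gave 0.43 ± 0.13 on 230A and 0.09 ± 0.42 on 230B (limma adjusted p = 0.586 and 0.951). Des, desmin, gave 0.59 ± 0.22 and 0.41 ± 0.53 (limma adjusted p = 0.692 and 0.784). Smtn, a muscle cytoskeletal protein, gave 1.11 ± 0.29 on 230A (limma adjusted p = 0.522), and its 230B probe set was under the filter with overlapping groups. Synm, synemin, gave 0.13 ± 0.19 on 230A and -0.09 ± 0.20 on 230B.

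Immune marker sums on 230A ran from 8801 to 10490 in low Fe and from 8606 to 9725 in high Fe. Cd74 made up most of them, at 6358 ± 887 in low Fe and 6101 ± 417 in high Fe (log2 difference 0.05 ± 0.13). Of the 8 tested 6 were below 0, with a median of -0.10. The T cell marker Cd8a gave -0.66 ± 0.19 on 230A and -0.81 ± 0.43 on 230B (limma adjusted p = 0.543 and 0.539) and Cd4 -0.37 ± 0.18, while the T cell receptor subunits Cd3d and Cd3e gave -0.04 ± 0.20 and -0.16 ± 0.20, with Cd3e at 0.17 ± 0.21 on 230B. Lyz2, a lysozyme of myeloid cells, gave 0.43 ± 0.25. Stroma and vessel sums ran from 1303 to 1438 in low Fe and from 1065 to 1408 in high Fe, with 4 of 5 tested above 0 and a median of 0.13. The collagen Col1a2 gave 0.57 ± 0.19 (limma adjusted p = 0.653), with a second probe set under the filter. It averaged 140.5 in low Fe and 88.63 in high Fe, the latter under the filter boundary of 106. Other stromal genes lay nearer 0, with Col3a1 at 0.16 ± 0.20, Vim at 0.13 ± 0.17, Dcn at 0.03 ± 0.21 and Col1a1 at -0.06 ± 0.17.

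Goblet and endocrine marker sums overlapped on 230A, from 44330 to 48170 in low Fe and from 41040 to 56910 in high Fe, with 4 of 8 below 0 and a median of -0.02. On 230B the sum of the 2 measured markers stood apart, from 40920 to 47990 in low Fe against 33020 to 40260 in high Fe. Clca1, a goblet cell product, gave -0.04 ± 0.12 on 230A and 0.48 ± 0.19 on 230B (limma adjusted p = 0.962 and 0.466). The other marker on 230B, Agr2, gave 0.16 ± 0.14, and the endocrine genes Chga and Cck gave 0.28 ± 0.21 and 0.16 ± 0.13 on 230A. The part of tissue makeup in the transporter differences was not tested.

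The genes most like Slc46a1 over the 6 samples were sought among 7050 other named genes, by the root mean square difference of log2 values after centring. The closest were Abcg5, a half-transporter that returns sterols to the gut lumen (0.0632), Stradb, a pseudokinase (0.0656), Ubox5, a ubiquitin ligase (0.0676), and Birc3, an inhibitor of apoptosis (0.0716), where the median gene was at 0.369. Abcg5 had signals of 2210.1, 1144.3 and 1482.5 in low Fe and 2085.7, 2154.6 and 1911.6 in high Fe, low in the same pair of samples. Of the other transporters, with Amn ranked by its dimmer probe set, Amn (0.215) and Cubn (0.224) came closest, at ranks 334 and 411 among the 7050. The value of the brighter Amn probe set is not given here. Slc23a1 (0.418) was farthest. All these values come from the same 6 arrays and describe them only.

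Other vitamin genes, and genes of heme handling and acid-base transport, were followed through 8 lists holding 108 genes. Of these, 78 were tested on at least 1 array type. On 230A 1 of 64 tested genes was called, Hmox1 of the heme list, where limma called 0.0945% of all 9519 probe sets. On 230B it was 0 of 21, where limma called 0% of all 9165 probe sets. At an unadjusted p under 0.05 there were 7 of 64 on 230A (10.9%, beside 6.68% of all) and 2 of 21 on 230B (9.52%, beside 10.2% of all). On 230A the log2 difference was below 0 for 31 of the 64 and above 0 for 33, with a median of 0.01.

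In the folate list, 12 of 20 genes were tested on 230A, with a median of 0.07. Ggh, the hydrolase that trims the glutamate tail of stored folates, had signals of 3042.2, 1371 and 1967.6 in low Fe and 4004.1, 5039.9 and 3268.3 in high Fe. Its groups did not overlap, and low Fe replicate 1 was again the low Fe sample nearest to high Fe. The log2 difference of -1.0 ± 0.27 did not pass (limma adjusted p = 0.523). The mitochondrial folate enzymes Shmt2 and Mthfd2 gave 0.45 ± 0.16 and 0.38 ± 0.21 (limma adjusted p = 0.688 and 0.774).

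Among thiamine genes, Slc19a2, the other thiamine transporter, had signals of 3442.9, 2974.1 and 3987.4 in low Fe and 2436.1, 3036.7 and 2426.4 in high Fe on 230B. The groups overlapped by 1 sample each, and the log2 difference was 0.39 ± 0.18 (limma adjusted p = 0.498). Thtpa, a thiamine triphosphatase, gave 0.32 ± 0.14 and Dld, a subunit of thiamine-dependent dehydrogenase complexes, -0.25 ± 0.14. Among biotin and pantothenate genes, Vnn1, the pantetheinase that frees pantothenate, gave 1593.4, 1093.5 and 1252.4 in low Fe and 2127.9, 1830.7 and 1806.5 in high Fe. Its groups stood apart and its log2 difference was -0.56 ± 0.16 (limma adjusted p = 0.561). The biotin enzyme subunit Mccc2 gave 0.57 ± 0.20 and Pc, pyruvate carboxylase, 0.43 ± 0.16 (limma adjusted p = 0.688 and 0.691).

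Of the ascorbate genes, Slc23a2, the second ascorbate transporter, had the difference farthest from 0. Its brighter probe set gave 1047.5, 1402.8 and 1282.7 in low Fe and 711.6, 505.1 and 784.4 in high Fe. All low Fe samples were above all high Fe samples, and the log2 difference was 0.90 ± 0.19 (limma adjusted p = 0.313). A second probe set, under the filter, averaged 88.7 in low Fe and 140 in high Fe with overlapping groups. Glrx, a glutaredoxin, gave -0.29 ± 0.14 and -0.38 ± 0.19 from its pair of probe sets, and Gsto2, a dehydroascorbate reductase, -0.30 ± 0.20 on 230B.

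Cobalamin genes other than the members gave small differences. Lrpap1, a chaperone of the receptor family that works with cubilin, was at 0.40 ± 0.19, with a second probe set under the filter. Mmut, the cobalamin-dependent mutase, gave 0.31 ± 0.16, 0.39 ± 0.21 and 0.25 ± 0.31 on 230B, and Cd320, the cell receptor for transcobalamin, 0.29 ± 0.25. Among genes of other vitamins, Naprt, which starts NAD synthesis from nicotinic acid, gave -0.28 ± 0.13 on 230A and -0.69 ± 0.26 on 230B (limma adjusted p = 0.750 and 0.456), with low Fe below high Fe in all samples on both. Nadk, which makes NADP, gave -0.23 ± 0.11 and -0.05 ± 0.15, and Slc22a5, a carnitine transporter, -0.34 ± 0.22.

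Of the heme list beside Hmox1, the heme-binding Pgrmc1 gave -0.36 ± 0.16 and Hmox2, the constitutive oxygenase, -0.09 ± 0.14 on 230A and -0.28 ± 0.17 on 230B. Slc9a3, the brush border sodium-proton exchanger that acidifies the surface layer in which Slc46a1 works, had signals of 3422.9, 2753.6 and 2888.5 in low Fe and 4121.5, 4217.2 and 3043.1 in high Fe. The groups overlapped, with low Fe replicate 1 above high Fe replicate 3, and the log2 difference was -0.32 ± 0.16 (limma adjusted p = 0.761). The bicarbonate cotransporter Slc4a4 gave -0.26 ± 0.17, and a dimmer probe set of it -2.15 ± 0.66 (limma adjusted p = 0.615). Slc9a2, a second sodium-proton exchanger, gave 0.14 ± 0.13.

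**Figure D4:**
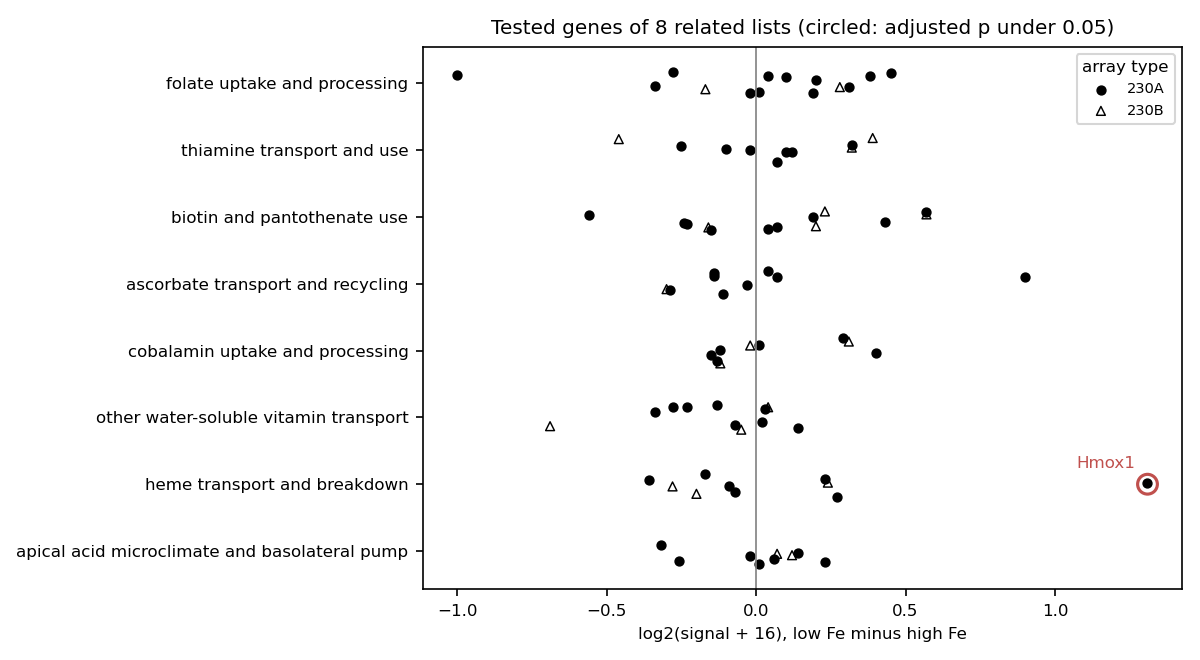
Log2 difference, low Fe minus high Fe, of each tested gene (1 point per gene and array type, its brightest probe set) in 8 lists of vitamin, heme and acid-base genes, on the log2(signal + 16) scale; filled circles are 230A and open triangles 230B. Hmox1, circled, is the 1 gene past the threshold, and Ggh at -1.0 and Slc23a2 at 0.90 lie outermost among the vitamin genes.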

How the data were processed

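Samples were grouped by their titles, whose group numbers 1 to 3 are called replicates. The deposited tables hold 1 linear intensity per probe set and array; which software made them is not stated in the sources used. In the values, every array had a mean of 500.1 (230A) or 500.2 (230B) after 2% of probe sets were left out at each end. Probe sets were named from the platform annotation, updated by Entrez identifier through RefSeq (GRCr8), and members by their platform symbol.

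Each type was analysed alone with limma 3.58.1 in R 4.3.3: log2(signal + 16), leaving out the dimmest 40% by mean log2 value, lmFit, eBayes with a trend, Benjamini-Hochberg over all tested probe sets. The steps were tested on simulated data. Named beside the members were, per list, genes past the threshold and the 3 tested genes with the smallest unadjusted p; further markers, and the same markers on the other array type, were added after their values were seen. The members, lists and alternatives were chosen with earlier results of these data known. Arrays with the same number deviated from their group means in opposite directions (correlations from -0.36 to -0.15 on 230A), so no block was used. An exact permutation test of 3 against 3 cannot go below a two-sided p of 0.1 and was not run.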

Additional observations from a re-analysis of the deposited data

How the results depend on the processing

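No member probe set was called under any alternative run: pseudocounts of 1 and 64, no filter or 60% left out, 3 scalings, eBayes with its trend off or its robust option on, blocking on replicate number (the replicate block), sets by the GAPDH ratio as a block, a threshold of 0.1 and each array left out in turn. The member count on 230B had no value, with no member there. The count of 9 called 230A probe sets (8 higher, 1 lower) was 33 (25 higher, 8 lower) with arrays scaled to the hybridization controls, 14 with the GAPDH sets as a block, 15 at the 0.1 threshold, 4 with the replicate block, and 5 to 21 without 1 array (5 without low Fe replicate 2, 21 without low Fe replicate 1); on 230B it was 4 with the hybridization controls and 0 otherwise. Causes were not tested. Hmox1 did not pass with the replicate block (adjusted p = 0.152) or no filter (0.0737).

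Signs of uncalled differences turned as follows. With a common median, Slc19a1 gave 0.0211, Slc5a6 0.0249, Tcn2 0.0618 and Nadk (230B) 0.0805. With the hybridization controls, under which the median of all 230A probe sets was 0.342, Slc19a1 gave 0.32, Slc5a6 0.33, Cubn 0.23, the brighter Amn probe set 0.18, Tcn2 0.37, Dld 0.12, Glrx 0.0872, Naprt 0.10, Nadk 0.14 (230A and 230B), Slc22a5 0.0307, Pgrmc1 0.0143, Hmox2 0.27, Slc9a3 0.0553, Slc4a4 0.12, Alpi 0.14, Cdh17 0.14, Si 0.19, Nr1h4 0.23 and Birc3 0.0088. Relative to that median Slc46a1 was at -0.38. The dimmer Slc4a4 probe set (-1.82, limma adjusted p = 0.000163) and Smtn (1.41, limma adjusted p = 0.0225) passed with the hybridization controls. For that Slc4a4 probe set the SE was 0.35 there, against 0.66 in the main run, where its groups overlapped. Without 1 array, Slc19a1 ran from -0.32 to 0.12, Slc5a6 from -0.25 to 0.13, Cubn from -0.40 to 0.041, Tcn2 from -0.0468 to 0.0565, Hmox2 from -0.18 to 0.0112, Nr1h4 from -0.26 to 0.0174, Nadk (230B) from -0.12 to 0.0198 and Slc51a from -0.0045 to 0.26.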
